A study of Mus musculus with 36 samples.

Results

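Lipopolysaccharide (LPS) sensing was followed through 10 genes, Tlr4, Ly96, Cd14, Tlr2, Myd88, Ticam1, Ticam2, Irak4, Irak1 and Irak3, which were taken from the deposited tables by their symbols. They are 10 of the 19879 genes listed in those tables, and each symbol matched 1 Ensembl gene. BV-2, the source of the RNA, is an immortalised microglial line of the mouse, labelled wild-type, so that all groups derive from 1 line and not from microglia of an animal. Poly(A)+ RNA was sequenced in 36 libraries of 12 groups, with 3 libraries each.

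There were 6 treatments, each sampled at 4 h and at 24 h. The vehicle groups received DMSO or ethanol (EtOH) alone, and the LPS group received LPS of E. coli O26:B6 at 600 ng/mL. The other groups received LPS at that concentration with 30 µM dimethyl fumarate (DMF), 30 µM monomethyl fumarate (MMF) or 6 µM cannabidiol (CBD). DMF and MMF were dissolved in DMSO and CBD in EtOH, vehicles stood at 0.2%, and serum was reduced to 0.1% in every group just before treatment. The LPS stock was aqueous, and the vehicle given to the LPS group is not stated in the sources used here. Comparisons with LPS alone may thus also differ in vehicle. No group received a drug without LPS. DMF carries methyl esters at both acid groups of fumaric acid and MMF at only 1 of them, and CBD is a plant cannabinoid of unrelated structure.

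LPS is the outer-membrane glycolipid of Gram-negative bacteria. CD14, anchored to the cell surface or soluble, takes up LPS monomers and hands them to the TLR4 receptor, which binds them through its partner MD-2, the product of Ly96. TLR2 senses bacterial lipopeptides with TLR1 or TLR6. Engaged TLR4 signals at the plasma membrane through MyD88, which gathers IRAK4 and IRAK1 and leads to NF-kB and to cytokine genes. After uptake into endosomes it signals through TRAM (Ticam2) and TRIF (Ticam1) to interferon genes. IRAK3, also called IRAK-M, restrains the MyD88 branch and is a known marker of LPS-tolerant macrophages. Microglia, the resident macrophages of the brain, carry this pathway, and LPS is widely used to activate them.

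Promoter sequences were printed for Tlr2, Myd88 and Irak3, because these were the genes with an entry in the promoter table that were called higher with LPS than with either vehicle at 4 h. The promoter table used here held windows, 250 bases before to 50 after the annotated start, for 6 of the 10 genes. These were Tlr2, Myd88, Irak3, Irak4, Ticam1 and Irak1. The sequences came from RefSeq on GRCm38.p6 and matched GRCm39 exactly at the positions given here. All are written 5′ to 3′ on the minus strand, on which these genes lie, and capitals mark matches to the NF-kB motif (kappa-B) or to the interferon-stimulated response element (ISRE).
Tlr2 (chr3:83748866-83749165): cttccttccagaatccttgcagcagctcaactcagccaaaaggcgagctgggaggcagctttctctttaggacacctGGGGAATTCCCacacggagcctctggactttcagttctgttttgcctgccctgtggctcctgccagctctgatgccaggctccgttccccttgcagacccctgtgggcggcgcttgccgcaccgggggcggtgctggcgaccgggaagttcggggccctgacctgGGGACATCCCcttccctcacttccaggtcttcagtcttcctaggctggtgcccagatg
Myd88 (chr9:119169035-119169334): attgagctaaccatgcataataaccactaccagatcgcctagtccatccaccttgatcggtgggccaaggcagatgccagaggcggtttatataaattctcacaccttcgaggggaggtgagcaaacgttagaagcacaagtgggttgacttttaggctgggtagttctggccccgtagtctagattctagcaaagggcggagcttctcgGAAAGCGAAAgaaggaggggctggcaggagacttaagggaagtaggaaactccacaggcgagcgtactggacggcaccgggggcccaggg
Irak3 (chr10:120037986-120038285): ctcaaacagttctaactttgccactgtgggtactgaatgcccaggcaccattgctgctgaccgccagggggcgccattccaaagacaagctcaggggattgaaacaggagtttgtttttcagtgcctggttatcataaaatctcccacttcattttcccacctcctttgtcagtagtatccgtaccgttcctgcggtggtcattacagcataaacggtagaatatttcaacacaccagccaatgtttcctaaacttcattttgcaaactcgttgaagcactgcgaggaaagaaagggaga
The Tlr2 window held 4 kappa-B matches on either strand, 3 of them overlapping, with first bases at -173, -172 and -8 from the annotated start. This start lies inside the gene as the tables place it. A kappa-B match was found in 4.51% of 32851 mouse promoter windows of the same length. The Myd88 window, whose start lies inside the gene as the tables place it, held 1 ISRE match (GAAA repeated after any 2 bases) at -40, a motif present in 3.44% of all windows. The Irak3 window, and its other entry at chr10:120037453-120037752, held neither motif, no AP-1 match (TGANTCA, 7.81% of all windows) and no antioxidant response element match (ARE, TGANNNNGC, 41.3%). Of the windows not printed, that of Irak4 held 1 ARE match, at -235, and those of Ticam1 and Irak1 none of the 4 motifs. The search covered both strands, and these matches are letters in a window and not measured sites.

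Each library held 14.1 M to 26.7 M reads counted in genes, with a median of 16.2 M. All 10 markers of microglia and macrophages fixed for this report were detected, with Csf1r, the CSF-1 receptor, and Cd68, a lysosomal glycoprotein, the most abundant of those examined in detail at mean normalized counts of 10034 and 5923. The homeostatic microglial markers Tmem119 and P2ry12 were low, at 78.5 and 45.8. Summed markers of neurons (0 to 6.27 per library), astrocytes (5.66 to 27.2), T cells (0 to 7.46) and B cells (6.89 to 23.7) were near 0, and Syt1, Snap25 and Aqp4 were at 0 or unlisted. Summed oligodendrocyte markers ran from 727 to 1579 and were mostly Mbp, and their group mean was lowest at 24 h with LPS and CBD, at 809.

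Levels below are normalized read counts on 1 common scale for the 36 libraries, as mean ± SD with n = 3. Fold changes are on the log2(normalized count + 1) scale, given with the limma standard error (SE), and a gene was called when its limma p, adjusted by Benjamini-Hochberg over all genes tested, was below 0.05. In bulk RNA, fewer cells of a type and less RNA per cell cannot be told apart. Per kilobase of exon, Cd14 (chromosome 18) was the most abundant gene, with a mean over groups of 9694. Irak1 (chrX:73057520-73067524), Tlr2 (chr3:83743579-83749074) and Myd88 (chr9:119165000-119170477) followed at 465, 396 and 376 per kilobase. Ticam1 (chr17:56576319-56583786) stood at 152, Tlr4 (chr4:66745821-66848521) at 108 and Ly96 (chr1:16758275-16779835) at 102 per kilobase. Irak4 (chr15:94441524-94479696) and Irak3 (chr10:119977553-120038035) were lower, at 60.6 and 38.6, and Ticam2 (chromosome 18) was lowest at 1.43 per kilobase. Of its 5792 exonic bases, 3782 are shared with the gene Tmed7 on the same strand, and the part of this overlap in the value was not tested. Positions are those of the deposited tables (GRCm39), in which all 10 genes are protein-coding, and per-kilobase levels use the whole exonic length of each gene.

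**Figure D1:**
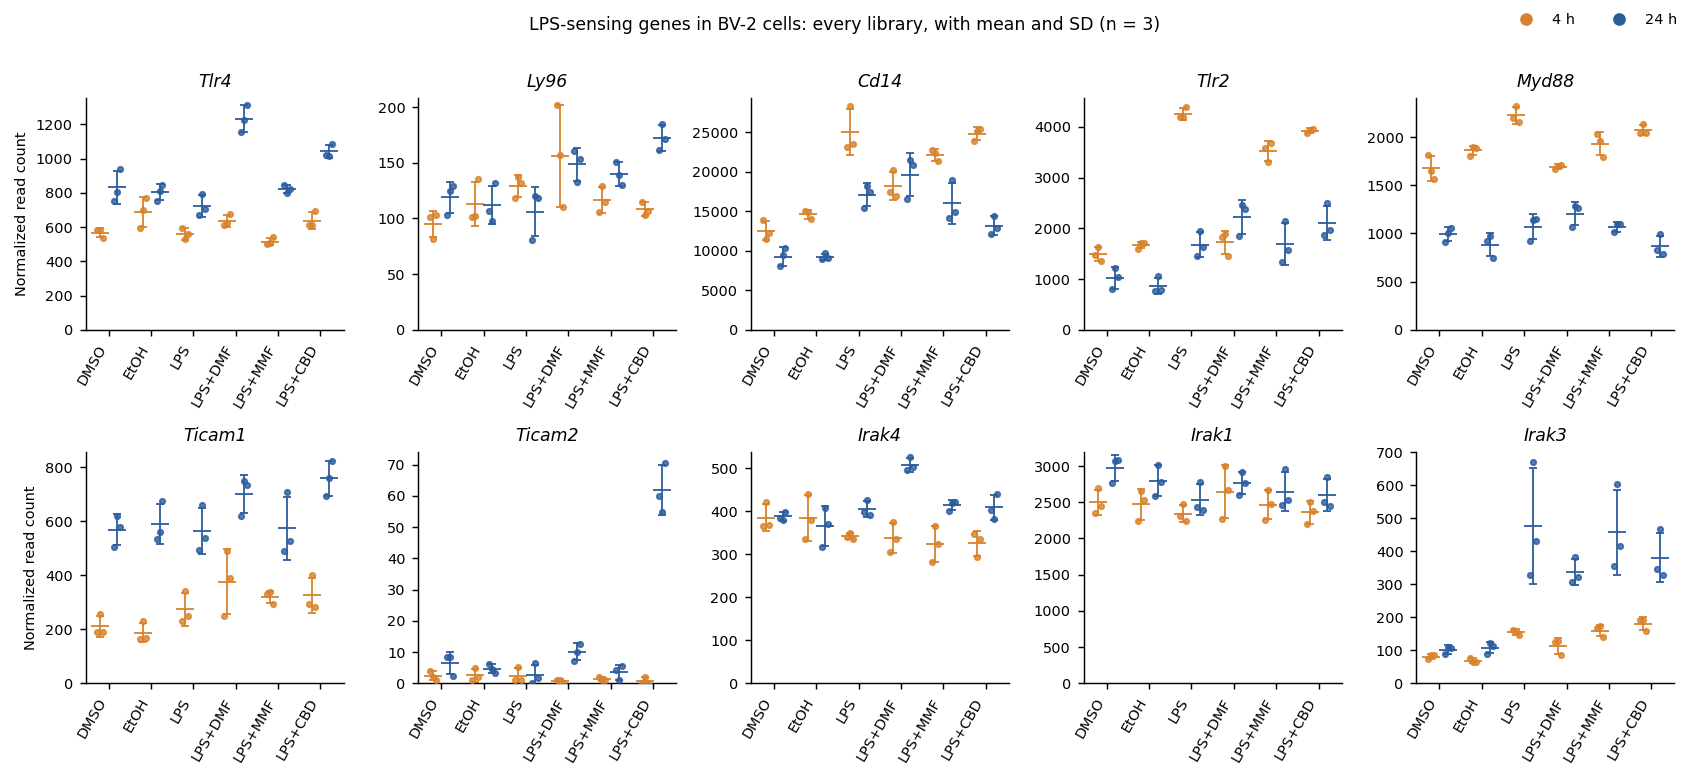
Normalized read count of the 10 genes (y axis, from 0, a scale of its own for each gene) in the 6 treatments (x axis) at 4 h (orange) and 24 h (blue). Points are libraries, bars the mean ± SD (n = 3). Tlr2 stands highest with LPS at 4 h (4255), Tlr4 with LPS and DMF at 24 h (1232) and Ticam2 with LPS and CBD at 24 h (61.8).

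The highest group mean exceeded the lowest by 1.27-fold for Irak1 and by 1.57-fold for Irak4, against 4.89-fold for Tlr2 and 6.98-fold for Irak3. In the order of levels, Tlr4 was highest with LPS and DMF at 24 h (1232 ± 78.9), then with LPS and CBD at 24 h (1042 ± 38.3), and the libraries of each of these groups stood apart from those of the next group. The other groups ran from 832 ± 96.7 (DMSO, 24 h) down to 515 ± 23.0 (LPS and MMF, 4 h), and the only other gap between neighbours was between LPS with DMF and DMSO at 4 h. For Ly96, no neighbours in the order were separated, from 172 ± 11.8 (LPS and CBD, 24 h) to 95.3 ± 11.8 (DMSO, 4 h). For Tlr2, LPS at 4 h (4255 ± 113), LPS with CBD at 4 h (3923 ± 49.1) and LPS with MMF at 4 h (3522 ± 189) each stood apart from the next group, and the 7 groups below them overlapped in a chain from 2226 ± 336 to 1485 ± 137. The vehicles at 24 h were lowest, at 1017 ± 211 (DMSO) and 869 ± 160 (EtOH), and stood apart from that chain.

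LPS was compared with each vehicle to ask which parts of its own sensing pathway respond to it. Cd14, Tlr2 and Irak3 rose with LPS against both vehicles at both times, and Myd88 rose at 4 h. The signalling receptor Tlr4, its partner Ly96, the TRIF adaptor Ticam1 and the kinases Irak4 and Irak1 were not called in any of the 4 comparisons. At 4 h, 4 of the 9 genes tested were called against DMSO (14.1% of all genes tested were called) and 4 of 9 against EtOH (10.2%), all higher. At 24 h, 3 of 9 were called against DMSO (22.7%) and 3 of 9 against EtOH (20.5%), all higher. Ticam2 was not tested, since it had a normalized count of 10 or more in fewer than 3 libraries. The comparisons at each time share the 3 LPS libraries.

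Tlr4 was 581, 582 and 537 in the DMSO libraries and 594, 527 and 558 in the LPS libraries at 4 h. The groups overlapped, and the log2 fold change was -0.02 ± 0.08 (SE, 95% interval -0.21 to 0.17). At 24 h Tlr4 was 751, 806 and 939 with DMSO and 673, 792 and 704 with LPS, a change of -0.19 ± 0.10 (adjusted p = 0.225 by limma). These groups overlapped as well, and against EtOH the changes were -0.29 at 4 h and -0.15 at 24 h, with adjusted p of 0.135 and 0.308 by limma. With all 36 libraries in 1 fit, the change against EtOH at 4 h was called (adjusted p = 0.0235 by limma).

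Ly96 was 101, 81.7 and 103 with DMSO and 118, 137 and 131 with LPS at 4 h. All 3 LPS libraries were higher than the DMSO libraries, but the rise of 0.43 ± 0.15 did not pass the adjustment (adjusted p = 0.091 by limma). The 95% interval of this change was 0.09 to 0.77, and at 24 h the change was -0.17, with overlapping groups.

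Cd14, the LPS-binding co-receptor, was 13831, 11536 and 12222 with DMSO and 23158, 28298 and 23529 with LPS at 4 h. The groups did not overlap, and the log2 fold change was 0.99 ± 0.10 (adjusted p = 0.000749 by limma). At 24 h it was 8017, 9413 and 10330 with DMSO and 15435, 18229 and 17480 with LPS, again without overlap. The rise at 24 h was 0.90 ± 0.10 (adjusted p = 0.000127 by limma), and against EtOH it was 0.77 at 4 h and 0.89 at 24 h.

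Tlr2, the lipopeptide receptor, showed the largest change of the 9 genes tested at 4 h. It was 1472, 1629 and 1356 with DMSO, 1597, 1705 and 1701 with EtOH, and 4185, 4193 and 4386 with LPS. The lowest LPS library thus stood above the highest vehicle library, with a rise of 1.52 ± 0.08 over DMSO (adjusted p = 1.78e-05) and of 1.35 ± 0.06 over EtOH (adjusted p = 1.36e-05 by limma). At 24 h it was 799, 1221 and 1031 with DMSO and 1455, 1950 and 1630 with LPS, a rise of 0.75 ± 0.15 (adjusted p = 0.0042 by limma). These groups did not overlap either, and the rise over EtOH at 24 h was 0.96 ± 0.14.

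Myd88, the adaptor of nearly all Toll-like receptors, was 1816, 1652 and 1564 with DMSO and 2196, 2328 and 2159 with LPS at 4 h. The LPS libraries were all higher, with a rise of 0.41 ± 0.07 (adjusted p = 0.00843 by limma). This call was lost without DMSO replicate 6 (adjusted p = 0.0516). The rise over EtOH at 4 h was 0.26 ± 0.06 (adjusted p = 0.0314 by limma), and it was lost without EtOH replicate 4, 5 or 6 (adjusted p = 0.132, 0.058 and 0.103) or without LPS replicate 1 or 3 (0.0595 and 0.0868), and with all 36 libraries in 1 fit (0.0672). At 24 h the changes were 0.12 against DMSO and 0.29 against EtOH (adjusted p = 0.454 and 0.105 by limma), the latter called without LPS replicate 1 (0.0334) or with all 36 libraries in 1 fit (0.0301). Exons of Myd88 share 628 bases with Acaa1a on the other strand, which encodes a peroxisomal thiolase. Whether counting used the strand is not known from the sources used here, and Acaa1a changed by 0.09 against DMSO at 4 h, where it was not called, and rose by 0.51 at 24 h. Its part in the Myd88 values was not tested.

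Irak3, the restraining IRAK, rose most at 24 h. It was 73.2, 86.0 and 84.5 with DMSO and 162, 158 and 146 with LPS at 4 h, and the groups did not overlap. The rise at 4 h was 0.93 ± 0.14 (adjusted p = 0.00373 by limma). At 24 h it was 87.5, 111 and 108 with DMSO and 329, 672 and 432 with LPS, a rise of 2.17 ± 0.22 (adjusted p = 5.34e-05 by limma). The lowest LPS library was nearly 3 times the highest DMSO library, and the LPS libraries differed widely among themselves. Against EtOH the rises were 1.18 at 4 h and 2.09 at 24 h. Exons of Irak3 share 192 bases with Tmbim4 on the other strand, which rose by 0.69 over DMSO at 24 h, and its part was not tested.

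Ticam1, Irak4 and Irak1 were not called with LPS. Ticam1 changed by 0.36 over DMSO and 0.54 over EtOH at 4 h (adjusted p = 0.233 and 0.114 by limma) and by -0.01 and -0.06 at 24 h. Irak4, the first kinase of the MyD88 complex, changed by -0.17 to 0.17 over the 4 comparisons, and Irak1, its partner kinase, by -0.21 to -0.07. Irak1 at 24 h against DMSO was called without LPS replicate 2 (adjusted p = 0.0181).

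**Figure D2:**
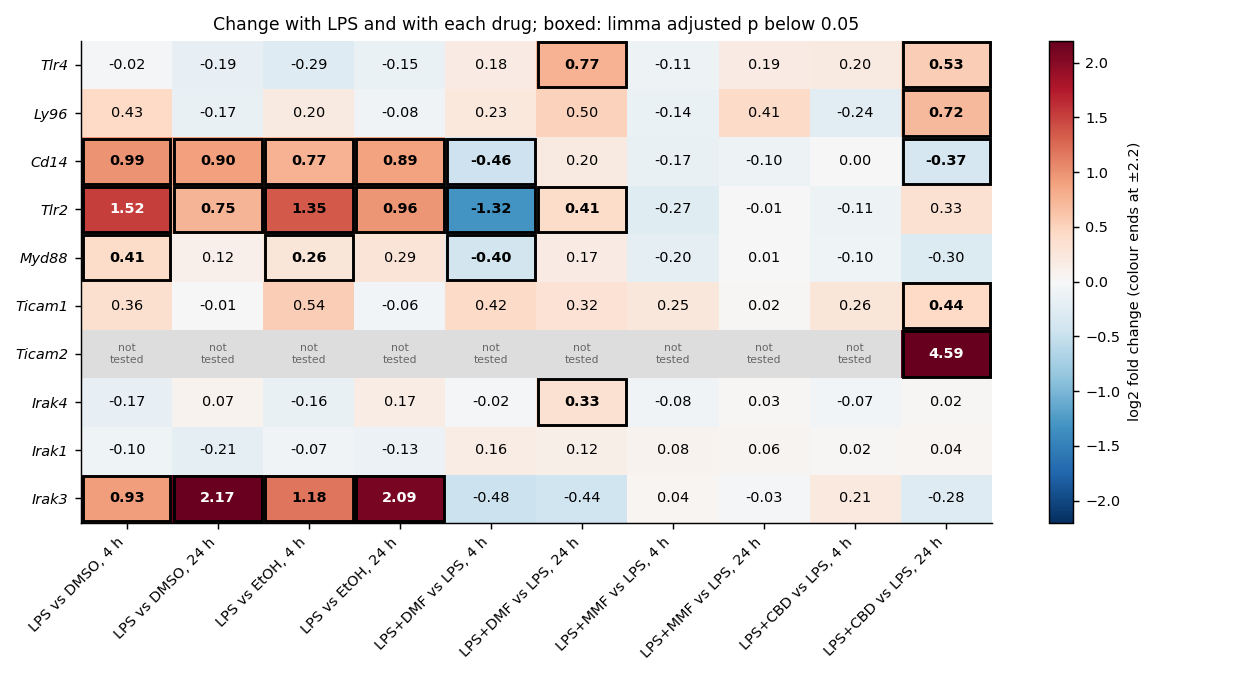
Log2 fold change (colour and number) of the 10 genes (rows) with LPS over each vehicle and with each drug and LPS over LPS (columns) at 4 h and 24 h. Black boxes mark limma adjusted p below 0.05 and grey cells genes not tested. Cd14, Tlr2 and Irak3 are boxed in all 4 LPS columns and no gene is boxed for LPS with MMF or for LPS with CBD at 4 h.

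DMF with LPS was compared with LPS alone at both times. Since no group received a drug without LPS, an altered LPS response cannot be told apart from an effect of the drug itself. At 4 h Tlr2, Cd14 and Myd88 were lower with DMF, and at 24 h Tlr4, Tlr2 and Irak4 were higher. At 4 h, 3 of the 9 genes tested were called, all lower (11.1% of all genes tested were called), and at 24 h 3 of 9, all higher (25.1%). With the replicate number as a block, 8 of 9 were called at 24 h, where the share over all genes also rose, to 39.1%.

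At 4 h, Tlr2 was 1819, 1888 and 1460 with DMF against 4185, 4193 and 4386 with LPS alone. The groups stood far apart, with a fall of 1.32 ± 0.11 on the log2 scale (95% interval -1.56 to -1.07, adjusted p = 0.000194 by limma). Of the DMF libraries, 1 lay within the range of the 6 vehicle libraries at 4 h (1356 to 1705) and 2 above it. Against DMSO, Tlr2 with LPS and DMF at 4 h changed by 0.20 (95% interval -0.06 to 0.46, adjusted p = 0.236 by limma).

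Cd14 was 17429, 20210 and 16859 with DMF and 23158, 28298 and 23529 with LPS alone at 4 h, without overlap. The log2 fold change was -0.46 ± 0.12 (adjusted p = 0.0338 by limma). It was lost without LPS replicate 1, 2 or 3 (adjusted p = 0.0536, 0.0718 and 0.0925), without DMF replicate 1 or 3 (0.0796 and 0.159) and with no filter on low values (0.0623). Myd88 was 1665, 1699 and 1713 with DMF and 2196, 2328 and 2159 with LPS alone, also without overlap. It fell by 0.40 ± 0.08 (adjusted p = 0.011 by limma), a call lost without LPS replicate 3 (0.0584) or DMF replicate 3 (0.0558). The overlapping Acaa1a changed by -0.45 in this comparison and was not called (adjusted p = 0.1), and its part was not tested.

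The other genes were not called at 4 h. Irak3 was 125, 130 and 86.2 with DMF and 162, 158 and 146 with LPS alone, a change of -0.48 ± 0.18 (adjusted p = 0.145 by limma). Its groups did not overlap, with every DMF library below the lowest LPS library. Ly96 with DMF spread from 110 to 202, the widest relative spread of any of its groups, around a change of 0.23. Ticam1 changed by 0.42 (95% interval -0.13 to 0.98) and Tlr4 by 0.18 (-0.04 to 0.40).

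Of the 9 genes tested at 24 h, Tlr4 changed most with DMF. It was 1155, 1228 and 1313 with DMF and 673, 792 and 704 with LPS alone. No library overlapped, and the rise was 0.77 ± 0.09 (adjusted p = 0.000367 by limma). Tlr4 with DMF was also above all 6 vehicle libraries at 24 h, which ran from 751 to 939.

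Irak4 was 495, 526 and 502 with DMF and 397, 426 and 390 with LPS alone at 24 h, again without overlap. The rise of 0.33 ± 0.09 (adjusted p = 0.0194 by limma) was lost without LPS replicate 3 (0.079) or without DMF replicate 2 or 3 (0.0762 and 0.0733). On the other strand, Irak4 exons share 647 bases with Twf1, an actin-binding protein gene, and 341 with Pus7l, a pseudouridine synthase gene. These changed by 0.16 and -0.13 in this comparison and were not called, and their part was not tested. Tlr2 was 1841, 2463 and 2373 with DMF and 1455, 1950 and 1630 with LPS alone, and these groups overlapped. Its rise of 0.41 ± 0.12 (adjusted p = 0.0377 by limma) was lost without LPS replicate 1 or 3 (0.109 and 0.117) or DMF replicate 2 or 3 (0.13 and 0.144).

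With the replicate block at 24 h, Ly96 (0.50, adjusted p = 0.0359), Ticam1 (0.32, 0.00814), Cd14 (0.20, 0.0234) and Myd88 (0.17, 0.0413) were called higher and Irak3 (-0.44, 0.0159) lower. Without the block their adjusted p ran from 0.058 for Ly96 to 0.244 for Myd88. Other settings also brought calls, for Ly96 without LPS replicate 2 (0.0359) or with all 36 libraries in 1 fit (0.0293), Ticam1 without LPS replicate 2 (0.0123) or DMF replicate 1 (0.0382), Cd14 without DMF replicate 1 (0.0319) and Irak3 without LPS replicate 1 (0.0246).

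The effect of DMF at 24 h was tested against its effect at 4 h in a model with an interaction term, in which 4 of 9 genes were called, all higher (16.4% of all genes tested were called). The difference, 24 h minus 4 h, was 1.71 ± 0.18 for Tlr2 (adjusted p = 3.62e-05), 0.65 ± 0.17 for Cd14 (0.0177), 0.58 ± 0.13 for Tlr4 (0.00738) and 0.56 ± 0.14 for Myd88 (0.0116, all by limma). The fall of Tlr2 at 4 h was thus not present at 24 h. Its rise at 24 h was lost without LPS replicate 1 or 3 or DMF replicate 2 or 3 (0.109 to 0.144). The difference for Cd14 was lost without DMF replicate 2 or 3 at 24 h (0.0554 and 0.0556), and that for Irak4 (0.34) was called only without DMF replicate 2 at 4 h (0.0431).

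**Figure D3:**
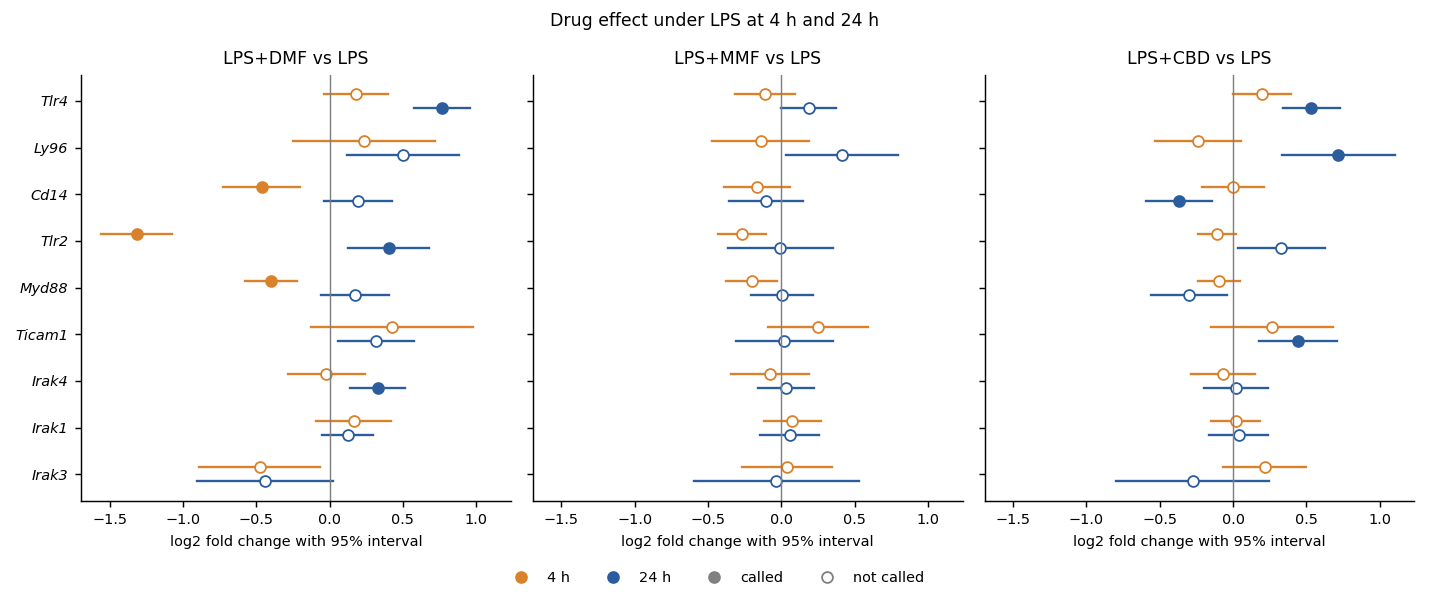
Log2 fold change with its 95% interval (x axis) of 9 genes (rows) for LPS with DMF, MMF or CBD over LPS alone, at 4 h (orange) and 24 h (blue). Filled points were called and open points were not. The DMF point for Tlr2 lies at -1.32 at 4 h and at 0.41 at 24 h, while no MMF point is filled.

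MMF, the monomethyl ester, gave no call. Against LPS alone 0 of 9 genes were called at 4 h (0.122% of all genes tested were called) and 0 of 9 at 24 h by limma, edgeR or DESeq2, with 2 and 1 of the 9 at an unadjusted p below 0.05. At 24 h 0% of all genes were called by limma, 440 had an unadjusted p below 0.05, and edgeR called 0 and DESeq2 17. Tlr2 at 4 h was 3584, 3309 and 3671 with MMF and 4185, 4193 and 4386 with LPS alone. All MMF libraries were lower, and the change of -0.27 ± 0.07 (95% interval -0.43 to -0.11) had an unadjusted p of 0.00417 and an adjusted p of 0.418 by limma. Tlr4 at 24 h changed by 0.19 (95% interval 0.00 to 0.37) and Ly96 by 0.41 (0.03 to 0.80), each with an adjusted p of 1. For the difference of the MMF effect between times, 0 of 9 genes and 0% of all genes were called by limma. Of the 9, 2 were at an unadjusted p below 0.05, and of all genes 384, with 0 called by edgeR or DESeq2.

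DMF and MMF were at the same dose of 30 µM and differ by 1 methyl ester, so this pair was compared directly at both times. At 4 h Tlr2 alone was called of 9 genes tested, lower with DMF (8.34% of all genes tested were called). It was 1819, 1888 and 1460 with DMF and 3584, 3309 and 3671 with MMF, a difference of -1.05 ± 0.11 (95% interval -1.29 to -0.80, adjusted p = 0.000805 by limma). The libraries of the pair did not overlap. For Cd14 the difference was -0.29 (95% interval -0.51 to -0.08), called only without DMF replicate 2 (adjusted p = 0.0348), and for Irak3 it was -0.51 (-0.94 to -0.09), for Tlr4 0.30 (0.08 to 0.51) and for Myd88 -0.20 (-0.38 to -0.01). None of these 4 passed the adjustment, although each interval lay to 1 side of 0, and their adjusted p ran from 0.0911 for Cd14 to 0.194 for Myd88 by limma. Tlr4 was called with all 36 libraries in 1 fit (0.0132). Acaa1a, which overlaps Myd88, was lower with DMF than with MMF (-0.46, adjusted p = 0.0397 by limma), and its part was not tested.

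At 24 h, 2 of 9 genes differed between DMF and MMF, both higher with DMF (21.5% of all genes tested were called). Tlr4 was 1155, 1228 and 1313 with DMF and 845, 797 and 822 with MMF, a difference of 0.58 ± 0.07 (adjusted p = 0.00106 by limma) without overlap. Irak4 was 495, 526 and 502 with DMF and 400, 420 and 421 with MMF, a difference of 0.29 ± 0.08 (adjusted p = 0.0258 by limma). The Irak4 call was lost without MMF replicate 1 or 3 (0.0938 and 0.0619) or DMF replicate 2 or 3 (0.0958 and 0.087). Irak1 differed by 0.06 (95% interval -0.11 to 0.24) and Ly96 by 0.08 (-0.20 to 0.36), which were not called. With the replicate block 7 of 9 were called (39.8% of all genes), adding Tlr2 (0.41, adjusted p = 0.000302), Cd14 (0.30, 0.00134), Ticam1 (0.30, 0.00862) and Myd88 (0.17, 0.0323) higher with DMF and Irak3 (-0.41, 0.00354) lower. Without MMF replicate 2 or without DMF replicate 1, 5 of 9 were called.

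CBD left the 9 genes tested uncalled at 4 h, and at 24 h the share called was near that over all genes. At 4 h 0 of 9 genes were called against LPS alone (0.00875% of all genes tested were called), and none of the 9 was at an unadjusted p below 0.05, nor called by edgeR or DESeq2. Cd14 changed by 0.00 (95% interval -0.21 to 0.21) and Tlr2 by -0.11 (-0.24 to 0.02). At 24 h 5 of 10 genes tested were called (48.7% of all genes tested were called), 4 higher and 1 lower, or 4 of 9 without Ticam2, which passed the filter only through the CBD libraries. Tlr4, Ly96, Ticam1 and Ticam2 were higher with CBD and Cd14 was lower.

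Tlr4 was 1022, 1018 and 1086 with CBD and 673, 792 and 704 with LPS alone at 24 h. All CBD libraries were higher, with a rise of 0.53 ± 0.09 (adjusted p = 0.000852 by limma). Ly96 was 161, 185 and 171 with CBD and 80.5, 120 and 118 with LPS alone, also without overlap. Its rise was 0.72 ± 0.17 (adjusted p = 0.00718 by limma). Ly96 with CBD was not called different from that with DMF at 24 h (0.21, 95% interval -0.07 to 0.50, adjusted p = 0.211 by limma).

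Cd14 went the other way, at 12146, 14430 and 12911 with CBD and 15435, 18229 and 17480 with LPS alone. The groups did not overlap, and the change was -0.37 ± 0.10 (adjusted p = 0.0127 by limma), a call lost without LPS replicate 3 (0.057) or CBD replicate 1 (0.0557). Ticam1, the TRIF adaptor, was 693, 759 and 825 with CBD and 493, 659 and 538 with LPS alone. Its rise of 0.44 ± 0.12 (adjusted p = 0.0125 by limma) was lost without LPS replicate 3 (0.0519) and with all 36 libraries in 1 fit (0.0564). Tlr2 (0.33) and Myd88 (-0.30) were not called, with adjusted p of 0.0627 and 0.0561, but were called with the replicate block (0.00119 and 0.0119, with 56.7% of all genes called) and by DESeq2 (0.0391 and 0.0495). Tlr2 was also called without LPS replicate 2 (0.0196) or CBD replicate 1 (0.0451), and Myd88 without LPS replicate 1 (0.0233) or CBD replicate 2 (0.0155) and with all 36 libraries in 1 fit (0.0079).

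Ticam2, which encodes the TRAM adaptor, had few reads in every group but LPS with CBD at 24 h. It had 57, 59 and 83 reads in the CBD libraries, against 0, 6 and 2 with LPS alone and 7, 9 and 17 with LPS and DMF at 24 h. The CBD group held 199 reads in all and LPS alone 8, a ratio of 24.3 after scaling (95% counting interval 12.1 to 57.1). Against LPS with DMF at 24 h, the next highest group, with 33 reads in all, the ratio was 5.98 (4.12 to 8.93). Intervals cover counting error only. In limma the rise over LPS alone was 4.59 ± 0.63 (adjusted p = 0.000332), a value that depends on the pseudocount. It also rose with DMF over LPS at 24 h with no filter on low values (2.05, adjusted p = 0.0461) and with all 36 libraries in 1 fit (2.02, 0.0169), and was otherwise not tested there. For CBD, Ticam2 entered the test only through the CBD libraries, so that a difference was to be found. Of the 5792 exonic bases of Ticam2, 3782 lie in Tmed7 on the same strand, an abundant neighbour that encodes a cargo receptor of the secretory pathway. Tmed7 rose by 0.38 ± 0.07 in the same comparison (adjusted p = 0.00201 by limma), from 2855 to 3708, and its part in the Ticam2 reads was not tested.

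**Figure D4:**
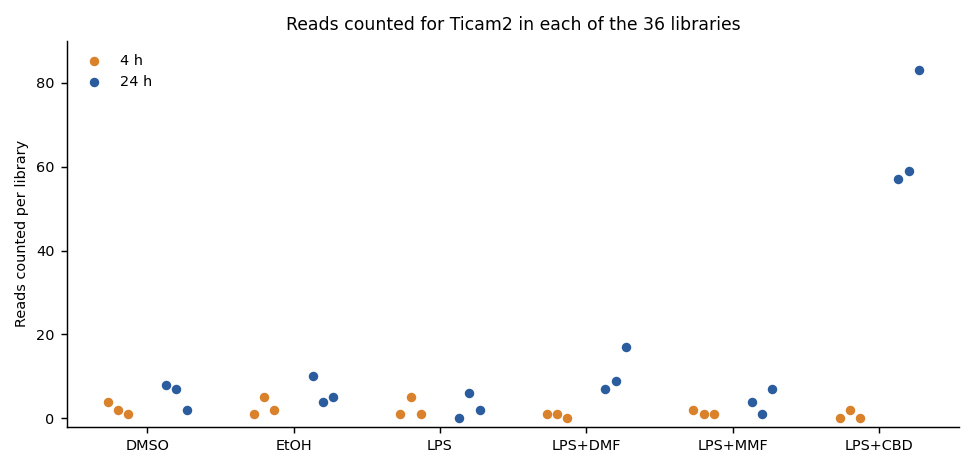
Reads counted for Ticam2 (y axis) in each of the 36 libraries, by treatment (x axis) and time (4 h orange, 24 h blue), not scaled for depth. The libraries of LPS with CBD at 24 h hold 57, 59 and 83 reads, and no other library holds more than 17.

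For the difference of the CBD effect between times, 3 of the 9 genes other than Ticam2 were called, all higher at 24 h (31.9% of all genes tested were called). Ticam2 entered this model only through the CBD libraries at 24 h, so that its call was fixed by the filter. The difference was 0.96 ± 0.22 for Ly96 (adjusted p = 0.00413), 0.35 ± 0.12 for Tlr4 (0.0451) and 0.45 ± 0.16 for Tlr2 (0.0424, all by limma), and the value for Ticam2 was 5.57. The calls of Tlr4 and Tlr2 were near the threshold and each was lost without any 1 of 9 of the 12 libraries (0.0583 to 0.104 and 0.0509 to 0.102) and with no filter on low values (0.0599 and 0.0589). Cd14 differed by -0.36 and was not called (adjusted p = 0.0645), but was called by DESeq2 (0.0331) and without LPS replicate 2 at 4 h (0.016), LPS replicate 1 at 24 h (0.04) or CBD replicate 2 at 24 h (0.0365).

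CBD, at 6 µM, and the fumarates, at 30 µM, differed in dose and vehicle. At 4 h 4 of 9 genes differed between CBD and DMF, all higher with CBD (15.5% of all genes tested were called): Tlr2 by 1.21, Irak3 by 0.69, Cd14 by 0.47 and Myd88 by 0.31. At 24 h 5 of 10 differed (38.5%), or 4 of 9 without Ticam2, with Ticam2 higher with CBD and Cd14 (-0.57), Myd88 (-0.48), Irak4 (-0.32) and Tlr4 (-0.24) lower. Tlr2 (adjusted p = 0.000194) at 4 h and Cd14 (0.00433) and Myd88 (0.00814, all by limma) at 24 h were called in every fit that left out 1 library. Cd14 at 4 h was lost without CBD replicate 3 (0.0506). Myd88 and Irak3 at 4 h were lost without DMF replicate 3 or any CBD library (0.0627 to 0.116), and Tlr4 and Irak4 at 24 h without DMF replicate 2 or 3 or CBD replicate 1 or 2 (0.0511 to 0.122). Ly96 at 4 h (-0.47) was called without DMF replicate 3 (0.0457) and with all 36 libraries in 1 fit (0.0369). Acaa1a, which overlaps Myd88, was also higher with CBD than with DMF at 4 h (0.47, adjusted p = 0.0284 by limma). At 24 h it changed by 0.10 and was not called. Of the genes that overlap Irak4, Pus7l was lower with CBD at 24 h (-0.49, 0.0324 by limma) and Twf1 was not called (-0.03). The part of these genes was not tested.

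Between CBD and MMF, 0 of 9 genes were called at 4 h by limma, edgeR or DESeq2, with 3 at an unadjusted p below 0.05 (0.166% of all genes tested were called), and 4 of 10 at 24 h (48.3%), or 3 of 9 without Ticam2. Tlr4 (0.35, adjusted p = 0.00371), Ticam1 (0.42, 0.0292) and Ticam2 were higher with CBD and Myd88 (-0.30, 0.0291, all by limma) was lower. Ticam1 was lost without MMF replicate 1 or 3 or CBD replicate 3 (0.113, 0.099 and 0.091) and with all 36 libraries in 1 fit (0.0719), and Myd88 without MMF replicate 2 or 3 or CBD replicate 1 or 3 (0.0653 to 0.0954). With the replicate block (7.78% of all genes called at 4 h and 56.7% at 24 h), Tlr4 (0.31, 0.00305), Cd14 (0.17, 0.0202) and Tlr2 (0.16, 0.0191) were called higher with CBD at 4 h. At 24 h it added Tlr2 (0.34, 0.00148) as higher and Cd14 (-0.27, 0.0111) and Irak3 (-0.24, 0.0484) as lower, for 7 of 10. Cd14 at 24 h was also called without CBD replicate 2 (0.0475), and Tlr2 without MMF replicate 2 (0.0123).

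Against their vehicles, LPS with DMF gave 2 calls of 9 at 4 h (23.5% of all genes tested were called) and 7 of 9 at 24 h (40.2%), all higher. At 24 h these were Irak3 (1.74), Tlr2 (1.16), Cd14 (1.10), Tlr4 (0.59), Irak4 (0.41), Ticam1 (0.32) and Myd88 (0.29), and at 4 h Ticam1 (0.78) and Cd14 (0.53). LPS with MMF gave 4 of 9 at 4 h (8.22%) and 3 of 9 at 24 h (22.4%), all higher, with Tlr2, Cd14 and Irak3 at both times. LPS with CBD gave 4 of 9 at 4 h (13.6%) and 7 of 10 at 24 h (50.5%), or 6 of 9 without Ticam2, all higher. Tlr4 (0.38 ± 0.08, adjusted p = 0.00294) and Ly96 (0.63 ± 0.15, 0.00621 by limma) were thus above EtOH as well as above LPS alone at 24 h. With DMF, Ticam1 was lost at 4 h without DMSO replicate 4 or 6 or DMF replicate 2 or 3 (0.0768 to 0.124) and at 24 h without DMSO replicate 4 or 6 or DMF replicate 2 or 3 (0.0656 to 0.117) or with all 36 libraries in 1 fit (0.232). It was lost with MMF at 4 h without DMSO replicate 4 or 6 or any MMF library (0.0584 to 0.13), with CBD at 4 h without EtOH replicate 4 or 6 (0.0689 and 0.0763), and with CBD at 24 h without EtOH replicate 4 or 5 or CBD replicate 3 (0.0564 to 0.0681) or with all 36 libraries in 1 fit (0.108). Ly96 with DMF at 4 h (0.67) was called without DMF replicate 3 (0.0193), by DESeq2 (0.0236) and with all 36 libraries in 1 fit (0.00269). Myd88 with DMF at 24 h was lost without DMSO replicate 4 (0.0774) or DMF replicate 2 or 3 (0.0787 and 0.098), and Tlr2 with MMF at 24 h without DMSO replicate 6 (0.0536). Of the overlapping genes, Acaa1a (0.47), Tmbim4 (0.63) and Twf1 (0.24) were also called higher with DMF over DMSO at 24 h, and Pus7l (0.07) was not called. Tmbim4, which overlaps Irak3, was called higher at 24 h with MMF (0.81) and CBD (0.69) as well. The part of these genes was not tested. Irak1 with MMF at 24 h (-0.15) was called only without MMF replicate 2 (0.0324).

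The vehicles were compared as a background for these values. Between DMSO and EtOH 0 of 9 genes were called at 4 h (0% of all genes tested by limma and by edgeR, 79 genes by DESeq2, and 1051 at an unadjusted p below 0.05) and 0 of 9 at 24 h (0.00854%). Of the 9 genes, 2 at 4 h and 0 at 24 h were at an unadjusted p below 0.05, and edgeR and DESeq2 called 0 at either time. The differences ran from -0.26 for Tlr4 to 0.25 for Irak3 at 4 h. Cd14 at 4 h was lower with DMSO by 0.22 on the log2 scale and was called only with the replicate block (adjusted p = 0.00533, with 7.65% of all genes called).

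Time was compared within each treatment, since the labels give both times for every group. Ticam1 was higher at 24 h than at 4 h in 6 of 6 treatments and Myd88 lower in 6 of 6. The share of the 9 or 10 genes called was 6 of 9 with DMSO (51.6% of all genes tested were called), 5 of 9 with EtOH (58.6%), 6 of 9 with LPS (48.9%), 6 of 9 with DMF (58.8%), 7 of 9 with MMF (49.5%) and 9 of 10 with CBD (63.2%), or 8 of 9 without Ticam2.

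Ticam1 and Myd88 moved in opposite directions. Over all genes the calls with DMSO were also split, with 2956 higher and 2966 lower at 24 h. Ticam1 was 190, 257 and 189 with DMSO at 4 h and 506, 620 and 580 at 24 h, a rise of 1.41 ± 0.14 (adjusted p = 3.3e-05 by limma). The rise over time ran from 0.82 with MMF to 1.64 with EtOH. Myd88 was 1816, 1652 and 1564 with DMSO at 4 h and 914, 1008 and 1061 at 24 h, a fall of 0.78 ± 0.08 (adjusted p = 5.08e-05 by limma). The overlapping Acaa1a also fell with DMSO (-0.43, adjusted p = 0.00523) and EtOH (-0.54, 0.00245), rose with DMF (0.39, 0.0161 by limma) and was not called with LPS, MMF or CBD, and its part was not tested. The change of Myd88 ran from -1.28 with CBD to -0.50 with DMF, and in no treatment did its 24 h libraries reach those of 4 h.

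Tlr2 was lower at 24 h in 5 treatments, by -1.36 with LPS, and higher by 0.36 with DMF (adjusted p = 0.037 by limma). The rise with DMF was lost without DMF replicate 3 at 4 h (0.152) or DMF replicate 2 or 3 at 24 h (0.139 and 0.131). Cd14 was lower at 24 h in 5 of 6 treatments, with -0.93 the largest change, under CBD, and changed by 0.10 with DMF, where it was not called. Tlr4 was higher in 5 of 6, from 0.36 with LPS to 0.94 with DMF, and with EtOH it changed by 0.21 and was not called (adjusted p = 0.0858), but was called without EtOH replicate 6 at 4 h (0.0356) or with all 36 libraries in 1 fit (0.0237). Irak3 was higher in 5 of 6, from 0.63 with EtOH to 1.57 with DMF, and changed by 0.30 with DMSO. The overlapping Tmbim4 was also called higher at 24 h with LPS (0.65), DMF (0.66), MMF (0.76), CBD (0.75) and DMSO (0.205). With EtOH it changed by 0.16 and was not called, and its part was not tested.

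Irak4 was higher at 24 h with DMF (0.58, adjusted p = 0.0011), MMF (0.35, 0.0246) and CBD (0.32, 0.025 by limma), while Twf1 and Pus7l were lower at 24 h in all 6 treatments. The call with MMF was lost without MMF replicate 1 or 3 at 4 h or 2 or 3 at 24 h (0.0517 to 0.106), and that with CBD without CBD replicate 2 at 4 h or 1 or 3 at 24 h (0.0554 to 0.0877). Ly96 was called with CBD only (0.65 ± 0.13, adjusted p = 0.00149 by limma), at 115, 103 and 107 at 4 h against 161, 185 and 171 at 24 h. In the fits without a block, Irak1 was called over time with DMSO (0.23, 0.0235), and this call was lost without DMSO replicate 4 or 6 at 4 h or 5 or 6 at 24 h (0.0757 to 0.0857).

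**Figure D5:**
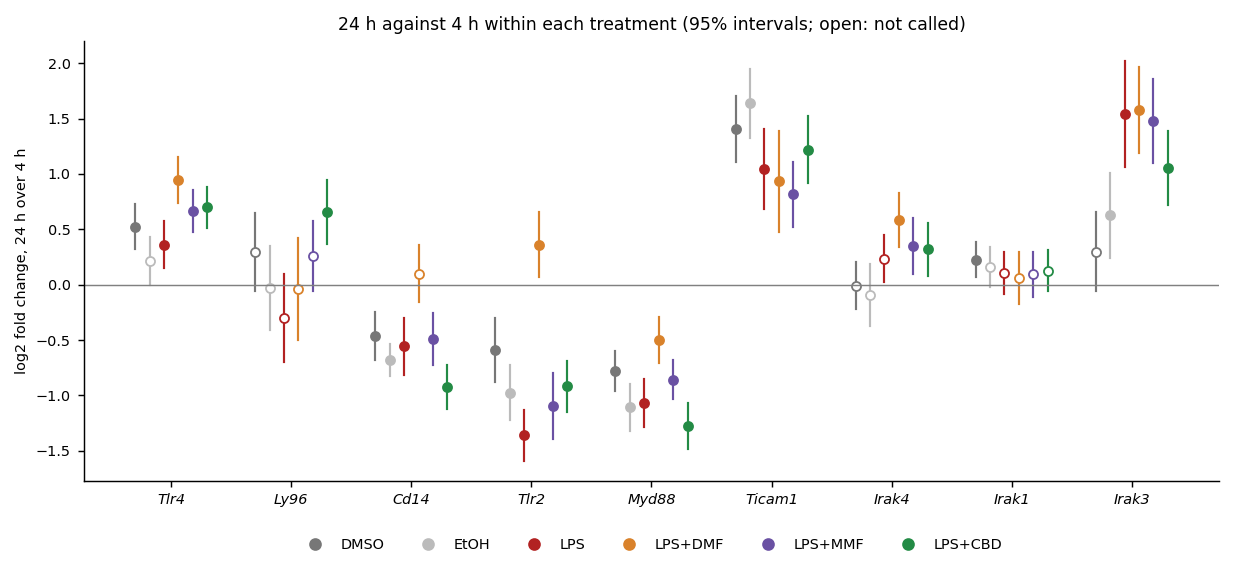
Log2 fold change of 24 h over 4 h (y axis) with 95% intervals for 9 genes (x axis) within each of the 6 treatments (colours). Filled points were called and open points were not. Ticam1 lies above 0 and Myd88 below 0 in all 6 treatments, and Tlr2 lies above 0 only with LPS and DMF (0.36).

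The LPS effect itself was also compared between times. Against DMSO, 2 of 9 genes had an effect that differed (9.36% of all genes tested were called). The rise of Tlr2 was smaller at 24 h, by -0.77 ± 0.19 (adjusted p = 0.0205), and that of Irak3 larger, by 1.24 ± 0.28 (0.0151 by limma). The Tlr2 difference was lost without DMSO replicate 6 at 4 h (0.0593), LPS replicate 3 at 4 h (0.0502) or DMSO replicate 6 at 24 h (0.0529). Against EtOH, 0 of 9 genes were called (9.05%) and 3 were at an unadjusted p below 0.05, with -0.39 for Tlr2 and 0.91 for Irak3. Of these, Irak3 was called by DESeq2 (0.0268) and without LPS replicate 1 at 24 h (0.0173).

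Other genes of the pathway were taken from lists of fixed members. Of 14 genes known to be induced by LPS, 13 were tested, and 11 were higher over DMSO at 4 h (median log2 fold change 2.93, against 0.00 over all genes) and 13 at 24 h (1.66, against 0.01), where 14.1% and 22.7% of all genes were called. With DMF against LPS alone at 4 h, 7 were lower and 1 higher (median -1.24), and at 24 h 7 were higher (0.73), beside 11.1% and 25.1% of all genes called. MMF gave no call among them at either time nor CBD at 4 h, and CBD at 24 h gave 6 higher and 4 lower, beside 48.7% of all genes. The study itself follows some of them, such as Tnf and Il1b, in these same libraries, so their direction is not independent evidence.

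Of 14 negative regulators of Toll-like receptor signalling, 5 were higher and 3 lower with LPS over DMSO at 4 h (14.1% of all genes were called), and 5 and 2 at 24 h (22.7%). Socs1, a suppressor of cytokine signalling, rose by 2.44 at 4 h and by 1.83 at 24 h. Sigirr, a decoy-like IL-1 receptor family member, changed by -0.55 at 4 h (adjusted p = 0.0445 by limma) and -0.54 at 24 h. Over EtOH Sigirr was not called at 4 h and changed by -0.56 at 24 h. Inpp5d, the SHIP1 phosphatase, changed by -0.36 at 4 h. Over EtOH, 5 were higher and 1 lower at 4 h (10.2% of all genes) and 4 and 2 at 24 h (20.5%), and Tnfaip3, the A20 ubiquitin-editing enzyme, rose by 1.83 at 4 h. With DMF at 4 h, 0 were higher and 8 lower than with LPS alone (11.1% of all genes), among them Trim30a at 316 against 1241 normalized counts, and at 24 h 6 were higher and 2 lower (25.1%), with Trim30a at 0.41 and Tnfaip3 at -0.63. With CBD at 24 h 4 were higher and 3 lower of the 14, a share near that over all genes (48.7%), with Trim30a at 0.81 and the phosphatase gene Ptpn6 at -1.26.

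Of the 19 other adaptor and complex genes, 17 were tested over DMSO at 4 h and 18 in the other comparisons. With LPS over either vehicle 5 were higher and 0 lower at 4 h, and 4 and 2 at 24 h, beside all-gene shares of 14.1% (DMSO) and 10.2% (EtOH) at 4 h and 22.7% and 20.5% at 24 h. Ikbke, an IKK-related kinase of the TRIF branch, rose by 2.17 over DMSO at 4 h and 2.34 at 24 h, and Irak2, a kinase of the MyD88 complex, by 1.66 at 4 h. Tirap, the bridging adaptor between TLR4 and MyD88, changed by -0.44 at 24 h. With DMF 1 was higher and 3 lower at 4 h (11.1% of all genes) and 1 and 1 at 24 h (25.1%), with Ripk1 at 0.40 and 0.50 and Map3k7, the TAK1 kinase, at -0.40 at 24 h. With CBD at 24 h 5 were higher and 6 lower of 18 tested, beside 48.7% of all genes, with Pik3ap1 at -0.58.

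Of 10 other Toll-like receptors, 8 were tested over DMSO, with 3 higher and 1 lower at 4 h (14.1% of all genes called) and 3 and 2 at 24 h (22.7%). Tlr5, the flagellin receptor, changed by -1.44 at 4 h and -0.61 at 24 h, and Tlr9, a receptor for CpG DNA, rose by 1.73 at 24 h. With DMF at 4 h 1 was higher and 4 lower (11.1% of all genes), with Tlr6 at 0.51, Tlr3, the double-stranded RNA receptor, at -2.18 and Tlr8 at -1.98. At 24 h Tlr3 was higher with DMF (0.48) and Tlr1 lower (-0.63), and with CBD Tlr3 (1.34) and Tlr9 (0.82) were higher and Tlr8 lower (-1.28). Of 7 genes of LPS binding and receptor trafficking, 5 were tested, and 0 were called over DMSO at 4 h. At 24 h 2 were higher and 0 lower over DMSO (22.7% of all genes), and 2 higher and 1 lower over EtOH (20.5%). The 1 lower over EtOH was Cd180, a TLR4 homologue, at -0.62, which was thus not called over DMSO.

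Over the 12 group means, the genes whose pattern was most like each of the 10 were found by Pearson correlation of log2 levels among 10096 genes, as a description of 12 points that share libraries within a time. The correlation was 0.943 for Tlr4 with Sec24d and 0.938 with Mknk1, and 0.913 for Ly96 with Tsc22d2 and 0.911 with Tmem258. Cd14 went with Gpr84 (0.994) and Zfp281 (0.969), and Tlr2 with Trim21 (0.973) and Ogfr (0.960). Myd88 went with Ccnj (0.989) and Nle1 (0.987), Ticam1 with Spag9 (0.992) and Bmal1 (0.989), and Ticam2 with Ttyh2 (0.982) and Csrnp2 (0.971). Irak4 went with Card9 (0.947) and Slamf9 (0.933), Irak1 with Btc (0.958) and Urgcp (0.951), and Irak3 with C3 (0.979) and Myo1d (0.976). Within the 10 genes, Cd14 and Tlr2 had a correlation of 0.927.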

How the data were processed

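RNA of BV-2 cells was sequenced in 36 libraries. Per the labels and the methods of the study, reads were inspected with FastQC 0.12.1, trimmed with Cutadapt 4.4 and Trimmomatic 0.39, aligned to GRCm39 with HISAT2 2.2.1, counted per gene with HTSeq 2.0.3 and compared with DESeq2 1.40.2 in R 4.3.1. A strand setting for HTSeq is not given in the sources used here. The deposited data were 30 tables, each comparing 2 groups, and each held a signal for 6 libraries, which the authors made by dividing counts per gene by the size factors of DESeq2. The tables also held their own log2 fold changes, standard errors, Wald statistics, p-values and adjusted p-values, which were not used.

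In 155 of 180 columns the values gave back whole reads, all to within 0.01 read, and the reads of the other 25 columns were taken from other tables. Tests used limma 3.58.1 (R 4.3.3, intensity trend) on log2(deposited normalized count + 1) with only the 6 libraries of each table, for genes with a value of at least 10 in at least 3 of them. Levels shown across groups, and the 5 interaction models of 12 libraries, used recovered reads under joint median-of-ratios scaling. The tables were normalized separately, so levels and fold changes can differ slightly. Exon lengths and overlaps came from a GRCm39 GENCODE annotation. Alternatives were edgeR 4.0.16 and DESeq2 1.42.0 on recovered reads, TMM scaling and pseudocounts of 0.5 and 5. Others were no filter on low values, a filter at a mean normalized count of at least 50 and all 36 libraries in 1 fit. Each library was also left out in turn, and the replicate number was entered as a block. Scripts were tested on simulated data.

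The labels number the LPS-treated libraries 1 to 3 and the vehicle libraries 4 to 6, and the study repeated each experiment 3 times. Whether a number marks 1 repeat was not stated, so p-values measure the spread between these samples, which may be technical. Numbers were taken to pair libraries where same-numbered libraries deviated together from their group means, with a correlation above 0.1 for each number. This held between LPS and DMF or CBD at both times, LPS and MMF at 24 h, CBD and either fumarate at both times, DMF and MMF at 24 h, the vehicles at both times, and over time for LPS and MMF. Chi-square divided by its degrees of freedom was 4.83 to 31.0 over the 36 pairs of libraries within groups, so none was a copy.

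The 10 genes and the pathway lists were chosen with earlier results of these data known. Besides the 10 genes, the text names up to 3 called list genes with the largest rise and 3 with the largest fall in each comparison against a vehicle for LPS or against LPS for a drug, and the 2 genes most correlated with each of the 10 among those with a mean of at least 50.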

Additional observations from a re-analysis of the deposited data

Results flagged for a closer look

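These results were singled out because the effect of a treatment differed between 4 h and 24 h by a test of the difference itself, the interaction term in limma. For LPS over DMSO, the difference (24 h minus 4 h, log2) was -0.77 for Tlr2 and 1.24 for Irak3. Over EtOH neither was called (adjusted p = 0.161 for Tlr2 and 0.0668 for Irak3 by limma). For DMF over LPS it was 1.71 for Tlr2, 0.65 for Cd14, 0.58 for Tlr4 and 0.56 for Myd88. For CBD over LPS it was 0.96 for Ly96, 0.45 for Tlr2, 0.35 for Tlr4 and 5.57 for Ticam2. The calls of Tlr2 and Tlr4 (adjusted p = 0.0424 and 0.0451 by limma) were near the threshold and were lost under several other settings. Ticam2 passed the filter only through the CBD libraries at 24 h, where it was high, so that its difference was fixed by the filter. The comparisons of DMF and of CBD share the LPS libraries at each time. No group was large enough for a check of single libraries that stand apart.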

How the results depend on the processing

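The 91 log2 fold changes of the 10 genes for LPS over a vehicle or a drug over LPS had 1325 values under other settings, of which 1275 stayed on their side of the threshold, 26 lost a call and 24 gained one. No called value changed sign, and 46 values that were not called did. TMM scaling moved the median over all genes by less than 0.02. When the replicate number entered as a block, calls among the 10 genes went from 3 to 8 for DMF over LPS at 24 h, from 2 to 7 for DMF over MMF at 24 h, from 4 to 7 for CBD over MMF at 24 h, from 0 to 3 for CBD over MMF at 4 h and from 0 to 1 for DMSO over EtOH at 4 h. Over all genes these fits called 39.1%, 39.8%, 56.7%, 7.78% and 7.65%, against 25.1%, 21.5%, 48.3%, 0.166% and 0% without the block, so the counts rose with those of all genes. It also went from 1 to 2 for DMF over MMF at 4 h, where the numbers were not taken to pair the libraries. In other such fits the block called Cd14 for the difference of the CBD effect between times (-0.36, adjusted p = 0.0175 by limma) and, over time with EtOH, Tlr4 (0.21, 0.0327) and Irak1 (0.16, 0.0362). No paired analysis was possible for LPS or a drug against a vehicle because these groups share no replicate numbers. With all 36 libraries in 1 fit, the count was 5 for DMF over LPS at 24 h and 2 for DMF over MMF at 4 h. It was 1 by DESeq2, against 0, for the difference of the LPS effect over EtOH between times, and 2, against 4, with no filter on low values for that of the CBD effect. With 1 library left out, the count ran from 1 to 3 for DMF over LPS at 4 h and 1 to 5 at 24 h, 3 to 6 for CBD over LPS at 24 h, 1 to 2 for DMF over MMF at 4 h and 1 to 5 at 24 h. It ran from 1 to 4 for CBD over DMF at 4 h and 3 to 5 at 24 h, 1 to 4 for CBD over MMF at 24 h and 1 to 2 for DMF over DMSO at 4 h. For differences between times it ran from 1 to 2 (LPS over DMSO), 0 to 1 (LPS over EtOH) and 1 to 5 (CBD over LPS). The cause of these moves was not tested, beyond there being fewer samples. The log2 fold change of Ticam2 with CBD over LPS at 24 h ran from 3.25, with a pseudocount of 5, to 5.33, without LPS replicate 2, since the LPS libraries held 0, 6 and 2 reads.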
